A study of Mus musculus with 6 samples.

Results

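Replication-dependent histone genes are the subject here, taken as every gene symbol of the count table that begins with Hist1h, Hist2h, Hist3h or Hist4h. There were 68 such genes among the 24503 symbols of the table. Of these, 66 had at least 1 count in some library and 2 had 0 counts in all 6. Of the 66, 26 had enough counts to be tested between genotypes, and 40 did not. The symbols follow an older nomenclature, in which the characters right after these beginnings give the histone class and the rest names the gene. There were 6 genes for linker histone H1, 18 for H2A, 19 for H2B, 12 for H3 and 13 for H4. Among the H2B genes, Hist3h2bb-ps is annotated as a processed pseudogene.

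These genes encode the bulk of the histones that package newly copied DNA, and most are transcribed mainly in S phase. Their mRNAs are unusual among animal mRNAs: most have no introns and end not in a poly(A) tail but in a short conserved stem-loop, which is bound by the stem-loop binding protein Slbp. Some members can also be made as polyadenylated transcripts that read through the stem-loop to a downstream poly(A) signal, a form known from cells that have left the cycle or differentiated. Replication-independent variants such as H3f3a and H2afz are separate genes with ordinary polyadenylated mRNAs.

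RNA was sequenced from cultured neural stem cells of mouse embryonic cortex at E13.5, expanded with FGF at 10 and EGF at 20 ng/mL. All libraries carry floxed Phf2 alleles. The WT group (3 libraries) is Phf2flox/flox without Cre, and the KO group (3 libraries) is Nestin-Cre Tg, Phf2flox/flox, in which a transgene driven by Nestin sequences, B6.Cg-Tg(Nes-cre)1Kln/J, expresses Cre in neural progenitors. Phf2 encodes a Jumonji-family histone demethylase, and the comparison asks what its loss does to transcript levels. There was no group with Cre and without floxed alleles among the samples analysed, and the labels do not say which embryo or culture each library came from, so p-values measure the spread between these libraries, which may be technical.

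Total counts per library ranged from 33413444 to 46890314. Phf2 itself had 4996, 3647 and 3670 counts in WT 1, 2 and 3. Its counts were 2315, 2041 and 1640 for KO 1, 2 and 3, all under the lowest WT count. For Phf2 the log2 fold change was -0.85 ± 0.150 (SE), and the edgeR adjusted p was 0.182 without and 0.000123 with the replicate number as a block. The cells carried neural stem cell markers: all 8 listed (Sox2, Nes, Vim, Fabp7, Pax6, Hes5, Notch1, Slc1a3) were at 1 CPM or more in every library, with a summed level of 9637 to 11208 CPM in WT and 9584 to 11090 CPM in KO, where CPM is the count relative to a library size scaled by TMM. Some of these markers, such as Nes and Hes5, spread more within a genotype than the sum did. Nes was at 687 to 1738 CPM in WT and 758 to 1748 CPM in KO. Hes5 was at 18.3 to 255 CPM in WT and 23.4 to 312 CPM in KO. The 5 neuron markers summed to at most 19.6 CPM. The microglia, endothelium and mesenchyme markers each summed to under 2 CPM, with Aif1, Cdh5 and Dcn at 0 counts. The 5 oligodendrocyte lineage markers summed to 3286 to 4052 CPM, most of it from Olig1 and Olig2. Olig1 was at 2000 to 2688 CPM in WT and 1903 to 2190 CPM in KO. Olig2 was at 1145 to 1254 CPM in WT and 1044 to 1227 CPM in KO. Pdgfra, Sox10 and Mbp reached at most 232, 13.4 and 6.87 CPM. The 4 astrocyte markers summed to 118 to 385 CPM in WT and 44.9 to 135 CPM in KO. Among them Aldh1l1 alone did not overlap, at 106 to 199 CPM in WT and 35.8 to 41.0 CPM in KO. Gfap, Aqp4 and S100b overlapped between genotypes, with Gfap at 5.33 to 159 CPM in WT and 3.70 to 64.0 CPM in KO. Whether these other cell markers have any part in the histone values was not tested. Libraries numbered 1 stood apart from numbers 2 and 3 in both genotypes, so results are also given with the replicate number as a block. Within a genotype the most alike libraries were KO 2 and KO 3, with a median chi-square per gene of 1.02 and 19.5% of genes over the 95% limit, against 5.25 to 34.5 and 55.6% to 80.8% for the other pairs. The labels do not say whether KO 2 and KO 3 are separate cultures, and if they are not, the KO group has fewer independent samples than the n = 3 given with its SDs.

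The stem-loop is shown first because it separates the annotated transcripts of these genes. The letters GGNNCTTTTNANNGCC were searched on the sense strand of all GENCODE vM21 transcripts (GRCm38, the assembly that mm10 names). The letters occurred in 42 of the 68 genes, and in 0.26% of 21901 protein-coding genes in all. Among the 42, the commonest form, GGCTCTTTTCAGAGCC, was in 26 genes, and the H4 genes that have a stem-loop held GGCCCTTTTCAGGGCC (7 genes) or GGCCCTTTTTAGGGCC (2 genes). The following sequences, 5′ to 3′ with the stem-loop in capitals, come from the 5 most abundant members that have it and from Hist1h3c, which has the form with an A in the loop:
Hist1h1c: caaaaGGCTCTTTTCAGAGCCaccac
Hist3h2a: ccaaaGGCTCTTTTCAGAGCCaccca
Hist2h2aa1: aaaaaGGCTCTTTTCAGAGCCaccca
Hist1h4i: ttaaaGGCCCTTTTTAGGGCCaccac
Hist3h2ba: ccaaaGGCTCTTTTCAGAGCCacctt
Hist1h3c: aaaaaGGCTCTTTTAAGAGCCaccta

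The capitals lie at chr13:23739512-23739527 (plus strand) in Hist1h1c, chr11:58955172-58955187 (plus) in Hist3h2a, chr3:96246032-96246047 (plus) in Hist2h2aa1, chr13:22040966-22040981 (minus) in Hist1h4i, chr11:58949349-58949364 (plus) in Hist3h2ba and chr13:23745047-23745062 (minus) in Hist1h3c. All 6 lie after the stop codon, in the 3′ UTR of a transcript annotated as a single exon.

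The annotated transcripts differ in what follows the stem-loop. In 21 genes the annotated transcript reaching furthest past the stem-loop stops within 100 bases of it. In another 21 a transcript runs further, by 840 bases in Hist1h1c, 1643 in Hist3h2a, 330 in Hist1h4i and 169 in Hist3h2ba. In the remaining 26 the letters are not in the annotated transcript, and for 13 of these the annotation holds coding sequence only, so nothing is known from it about their ends. The poly(A) signal AATAAA lay within the last 40 bases of a transcript in 15 of the 68 genes, in 14 of them in a transcript annotated as protein-coding, and the same search found it in 64.1% of all protein-coding genes. The ends of 4 abundant members with the signal, in capitals, read as follows:
Hist1h1c: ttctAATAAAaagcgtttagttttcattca
Hist2h2be: tattAATAAAgttaccgattagtttc
Hist3h2a: gcccAATAAAataagagtacgtgtataaca
Hist3h2ba: tattAATAAAtttggttcaattttggccac

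These signals lie at chr13:23740342-23740347, chr3:96223717-96223722, chr11:58956797-58956802 and chr11:58949507-58949512, all on the plus strand.

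Histone genes took a very small part of these libraries. Their 68 rows together held 24551 counts over the 6 libraries. The share of a library's counts ran from 0.00797% in WT 1 (95% Wilson interval 0.00771 to 0.00822%) to 0.0111% in WT 3 (0.0108 to 0.0114%), intervals that cover counting error only. The summed level was 81.2, 93.3 and 110 CPM in WT 1, 2 and 3 and 90.2, 109 and 106 CPM in KO 1, 2 and 3. The labels' protocol says that mRNA was fragmented and primed with random hexamers, but how mRNA was selected was not found in the labels, so the summed level describes the histone RNA that these libraries captured, not the histone RNA of the cells.

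Most of that RNA came from 7 genes with at least 1000 counts over the 6 libraries, which together held 87.0% of the histone counts. They were the H2B genes Hist1h2bc (7322 counts), Hist2h2be (2191) and Hist3h2ba (1100), the linker histone gene Hist1h1c (5321), the H2A genes Hist3h2a (2142) and Hist2h2aa1 (1735) and the H4 gene Hist1h4i (1560). Their current symbols in RefSeq are H2bc4, H2bc21, H2bu2, H1f2, H2aw, H2ac18 and H4c9, in the same order. No H3 gene was among them. Their positions in GRCm38 are chr13:23684199-23692908 for Hist1h2bc, chr3:96221119-96223738 for Hist2h2be, chr11:58948920-58949533 for Hist3h2ba, chr13:23738808-23740367 for Hist1h1c, chr11:58954685-58956830 for Hist3h2a and chr3:96245497-96246082 for Hist2h2aa1, all on the plus strand, and chr13:22040636-22041362 on the minus strand for Hist1h4i. All are annotated as protein-coding. At the other end, 52 of the 68 genes had under 100 counts over all libraries together.

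In the H1, H2A, H2B and H4 classes most counts came from the abundant genes just named. H2B genes held 46.6% of all histone counts, H1 genes 22.7%, H2A genes 19.1%, H4 genes 7.95% and H3 genes 3.71%. By chromosomal cluster, the 54 Hist1 genes on chromosome 13 (21715763 to 23934851) held 67.9%, the 10 Hist2 genes on chromosome 3 (96219865 to 96270132) 18.7%, and the 3 Hist3 genes on chromosome 11 (58948920 to 58956830) 13.3%. Hist4h4, the single Hist4 gene (chromosome 6, 136801553 to 136804415), had 10 counts in all.

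Counted per length, Hist1h2bc had the highest level of the tested members, at 25.3 CPM per kilobase of its longest annotated transcript, followed by Hist1h1c at 13.7 and Hist2h2aa1 at 11.8. The 11 tested genes listed here as replication-independent variants all lay higher on the same scale. They ran from 30.6 CPM per kilobase for H2afy2, a macroH2A gene, to 527 for H2afz. H3f3b and H3f3a, which encode an H3 variant deposited independently of DNA replication, were at 270 and 217 CPM per kilobase.

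Genes whose annotated transcript runs past the stem-loop had a median of 83 counts over 6 libraries, with 4 of 21 at 1000 or more. Genes that end at it had a median of 32, with Hist2h2aa1 alone of 21 at 1000 or more. Genes without the letters had a median of 32 as well, with Hist1h2bc and Hist2h2be at 1000 or more. The 15 genes with AATAAA near the end had a median of 124 counts and held 47.1% of the histone counts, and the other 53 had a median of 34. These are raw counts, not scaled to transcript length, and a longer transcript can collect more reads at the same level. The medians therefore do not compare levels between the groups. These values describe an annotation, and Hist1h2bc, Hist2h2aa1 and Hist1h4i had 1000 counts or more without an annotated AATAAA near the end.

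**Figure D1:**
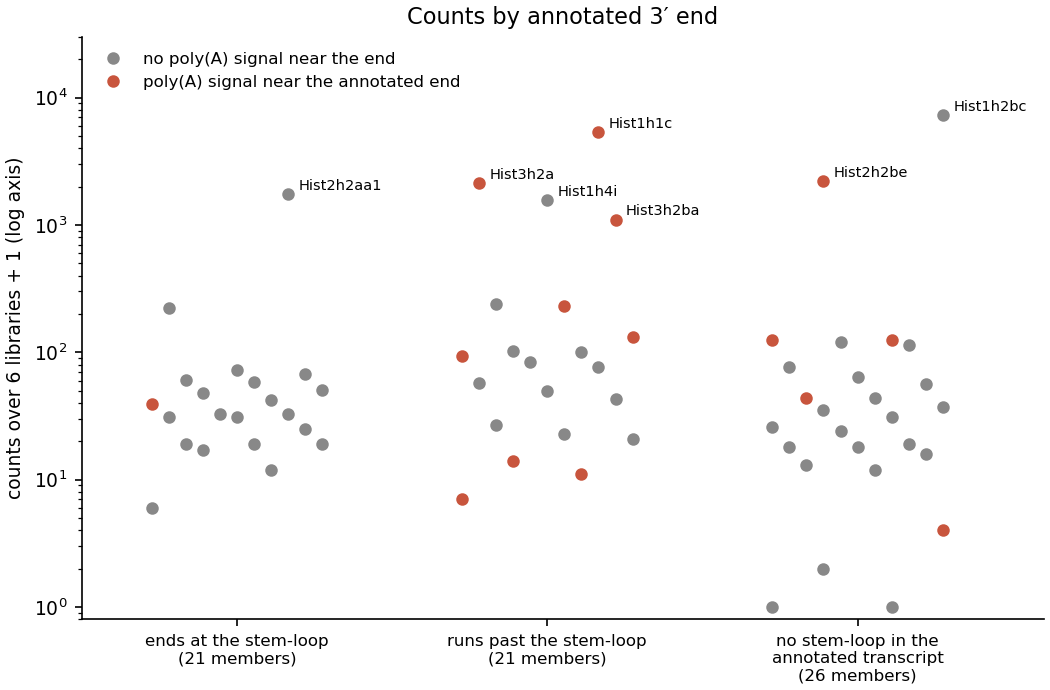
Counts over 6 libraries plus 1, on a log axis, for each of the 68 histone genes (points), by how the GENCODE vM21 transcript ends; red points have the poly(A) signal within the last 40 bases. The 7 named genes, all at 1000 counts or more, stand above the rest, and Hist2h2aa1 is the one among them that ends at the stem-loop. Counts are not scaled to transcript length.

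The 2 genes with 0 counts everywhere were Hist1h2aa and Hist1h2ba, which encode H2A and H2B forms of the testis. A count of 0 allows up to 3 counts per library, or 0.0892 CPM in KO 3, the shallowest. Hist1h1t, the testis H1 gene, had 6 counts over the 6 libraries. Of the other members, 41 of the 68 had counts in every library and 25 in some libraries only. The number of genes with any count ranged from 55 in WT 2 to 61 in WT 1, and the number with at least 10 counts from 17 in WT 2 to 31 in KO 1. The most abundant gene outside the test had 56 counts in all.

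Counts of near-identical copies could not be separated with confidence. Of 57 coding sequences that could be compared with another of the same class and length, 46 were over 95% identical to another member, and 8 were 100% identical: Hist1h2ao with Hist1h2ap, Hist1h2bq with Hist1h2br, Hist1h4m with Hist1h4n, and Hist2h2aa1 with Hist2h2aa2. In 32 of the 68 genes more than 50% of the 50-base windows of the longest transcript also occurred in another gene. Hist1h2bq and Hist1h2br had the same count in each library (WT 13, 26 and 22, KO 22, 19 and 22), so the deposited table holds 1 set of values for both.

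The H3 copies of the Hist2 cluster show how far the division went. Hist2h3c1 had 21, 0 and 24 counts in WT 1, 2 and 3, against 61, 0 and 24 in KO 1, 2 and 3. Its neighbour Hist2h3c2 had 14, 76 and 54 in WT and 0, 67 and 28 in KO. Where one copy was at 0 the other was high, and the same held within both genotypes. Their sum with Hist2h3b was 47, 78 and 78 in WT and 63, 69 and 57 in KO, which is far more even than either copy. All 50-base windows of Hist2h3c1 (100%) and 63.5% of those of Hist2h3c2 occurred in another gene.

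Among the H2A copies, Hist2h2aa2 had 36, 111 and 0 counts in WT 1, 2 and 3, against 23, 29 and 23 in KO 1, 2 and 3. Hist2h2aa1 had 150, 259 and 509 in WT and 146, 400 and 271 in KO. Their sum was 186, 370 and 509 in WT and 169, 429 and 294 in KO. Single-copy values of these genes are therefore uncertain, and sums are given beside them.

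**Figure D2:**
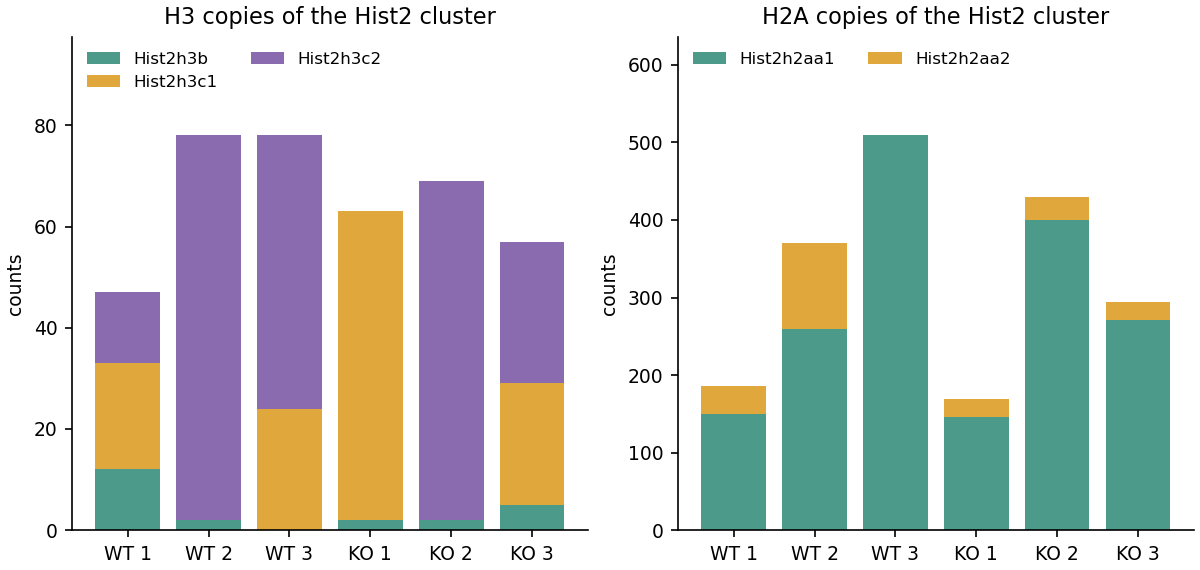
Stacked counts per library for the H3 copies (left) and H2A copies (right) of the Hist2 cluster, with bars from 0 and 1 colour per gene symbol. Hist2h3c1 and Hist2h3c2 trade places between libraries of the same genotype while their sum with Hist2h3b stays between 47 and 78 counts.

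No difference in histone transcripts between KO and WT neural stem cells was detected at this depth and spread. Summed over the 68 genes, the level was 94.8 ± 14.4 CPM for WT and 102 ± 9.93 CPM for KO libraries (SD, n = 3 each), a log2 ratio of 0.10, with overlapping libraries. The class sums overlapped too, at 21.5 ± 3.41 and 23.0 ± 3.14 CPM for H1, 18.9 ± 5.10 and 18.5 ± 3.85 for H2A, 43.4 ± 7.10 and 48.2 ± 5.57 for H2B, 3.43 ± 0.284 and 3.84 ± 1.02 for H3, and 7.53 ± 1.84 and 7.97 ± 1.48 for H4 (WT and KO, SD, n = 3 each). Compared within replicate numbers, KO was the higher in 3 of 3 for the H2B and H4 sums, in 2 of 3 for H1 and H2A and in 1 of 3 for H3. The pairing of numbers 2 and 3 rests on the titles alone, so these counts do not show a paired rise. The H4 sum was higher for WT 3 (7.04 CPM) than for KO 2 (6.95 CPM). The H2B sums of KO 2 and KO 3 lay above those of WT 2 and WT 3. The margin was small between KO 3 (50.4 CPM) and WT 3 (50.3 CPM). No test was made on these sums.

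None of the 26 tested members passed when edgeR p-values were adjusted over 13683 genes, where 0.0292% of all genes were called higher and 0.0292% lower. None had an unadjusted p under 0.05, against 5.81% of all genes, and the lowest adjusted p was 0.999. With the replicate number as a block, 0 members were called as well, while 3.33% of all genes were called higher and 6.46% lower. There 1 member had an unadjusted p under 0.05, against 23.7% of all genes. DESeq2 called 0 members without and with the block. With the block it gave no adjusted p for several low-count members, among them Hist1h2ap and Hist1h2bg, so these could not be called there. The median log2 fold change of the 26 was 0.12 without the block, beside 0.01 over all genes tested. Of the 26, 19 were above 0. Hist1h2bq and Hist1h2br hold the same counts and other copies share reads, so the 26 are not independent.

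The narrowest intervals without the block were those of Hist1h2bc and Hist1h1c. Hist1h2bc was at 23.9, 26.6 and 32.2 CPM in WT 1, 2 and 3 and 27.7, 33.9 and 31.3 CPM in KO 1, 2 and 3. WT 3 lay within the KO range. Its log2 fold change was 0.17 ± 0.153 (SE), with a 95% interval from -0.20 to 0.54, and from -0.03 to 0.37 with the block.

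Hist1h1c, the most abundant linker histone gene, was at 17.8, 19.8 and 24.1 CPM in WT and 18.2, 23.5 and 24.5 CPM in KO. The groups overlapped over nearly their whole range. The log2 fold change was 0.10 ± 0.176 (SE), with an interval from -0.32 to 0.53.

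Hist2h2be, an H2B gene, was at 6.26, 10.2 and 8.90 CPM in WT and 7.37, 9.90 and 10.4 CPM in KO, a log2 fold change of 0.13 ± 0.236 (SE). Hist3h2a, an H2A gene, was at 6.96, 8.90 and 10.7 CPM in WT and 6.91, 9.15 and 8.44 CPM in KO, a log2 fold change of -0.12 ± 0.211 (SE). In both genes library 1 was the lowest of its group.

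Hist2h2aa1 was at 3.26, 6.42 and 10.8 CPM in WT and 3.55, 9.43 and 8.06 CPM in KO, and its change of 0.04 ± 0.522 (SE) had the widest interval of the 7, from -1.22 to 1.30. With its identical copy Hist2h2aa2 added, the log2 fold change was -0.06 ± 0.464 (SE). Hist1h4i, the main H4 gene here, was at 8.07, 4.54 and 5.21 CPM in WT and 8.27, 5.47 and 5.59 CPM in KO, with a change of 0.12 ± 0.290 (SE). Hist3h2ba was at 3.13, 4.46 and 5.40 CPM in WT and 3.14, 5.35 and 4.91 CPM in KO. The last change was 0.04 ± 0.299 (SE). For the 7 abundant genes together, the 95% intervals reached at most from -0.37 to 0.47 on the log2 scale when the block was used.

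**Figure D3:**
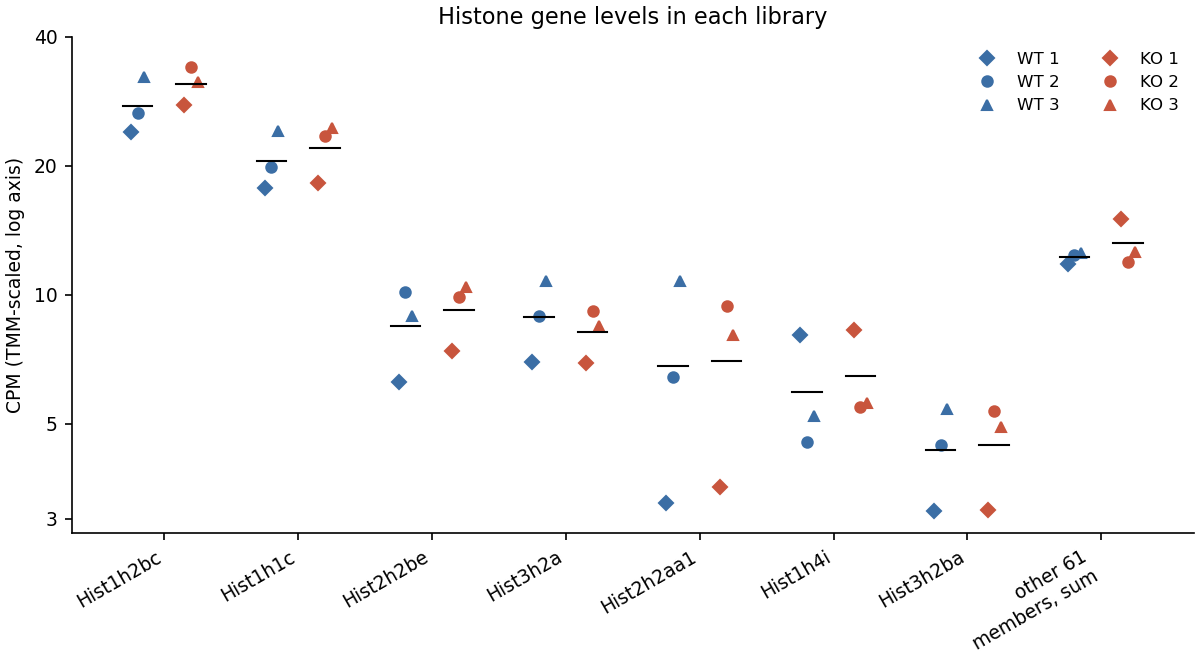
TMM-scaled CPM on a log axis for the 7 histone genes with at least 1000 counts and for the sum of the other 61, in each WT (blue) and KO (red) library; bars are group means and marker shapes give the replicate number. WT and KO libraries overlap for each gene, and in 6 of the 7 genes library 1 is the lowest of both groups.

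The 19 other tested members had 57 to 239 counts over the 6 libraries, and their log2 fold changes ran from -0.86 for Hist2h2aa2 to 1.21 for Hist1h2ap, with standard errors from 0.266 to 1.42. The 95% interval reached a log2 difference of 1 in either direction in 18 of the 19. In 1 gene the KO libraries lay above the WT libraries and in 1 they lay below, where 4.49% and 6.71% of all tested genes did so. Hist1h2ai, an H2A gene, had 3, 13 and 14 counts in WT 1, 2 and 3, against 18, 15 and 12 in KO 1, 2 and 3. Scaled to depth, this was 0.0652, 0.322 and 0.297 CPM in WT and 0.438, 0.354 and 0.357 CPM in KO, a log2 fold change of 0.75 ± 0.574 (SE). Hist1h4k, an H4 gene, had 29, 23 and 22 counts in WT and 17, 15 and 13 in KO, a change of -0.53 ± 0.302 (SE). Neither passed, the edgeR adjusted p being 0.999 for both without and 0.395 and 0.386 with the block, in the order given.

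Hist2h3c1 had the lowest p of the members with the block (log2 fold change 1.14 ± 0.422 (SE), edgeR adjusted p = 0.137). Without the block the value was 1.16 ± 1.42 (SE), and it was 0.065 without KO 1 and 0.28 in numbers 2 and 3 alone, so its size rests on KO 1. For its neighbour Hist2h3c2 the value with the block was -0.63 ± 0.418 (SE). Summed with Hist2h3b, these copies gave 0.08 ± 0.298 (SE) without the block. The H2A genes Hist1h2ap and Hist1h2ao, with identical coding sequences, gave 1.21 ± 0.792 and 0.87 ± 0.941 (SE), from 2, 10 and 7 counts in WT and 6, 10 and 22 in KO for the former and 11, 0 and 12 against 21, 11 and 5 for the latter. Hist1h2ap was at 0.39 without KO 3, and Hist1h2ao at 0.29 without KO 1. Hist1h2bg (0.87 ± 0.555), Hist1h2af (0.81 ± 0.638), Hist1h1e (0.52 ± 0.806), Hist1h3c (0.46 ± 0.417) and Hist1h1d (-0.49 ± 0.468, all SE) complete the 12 genes with the lowest p without the block, beside Hist1h2bc and Hist2h2aa2, and all 5 overlapped between genotypes.

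**Figure D4:**
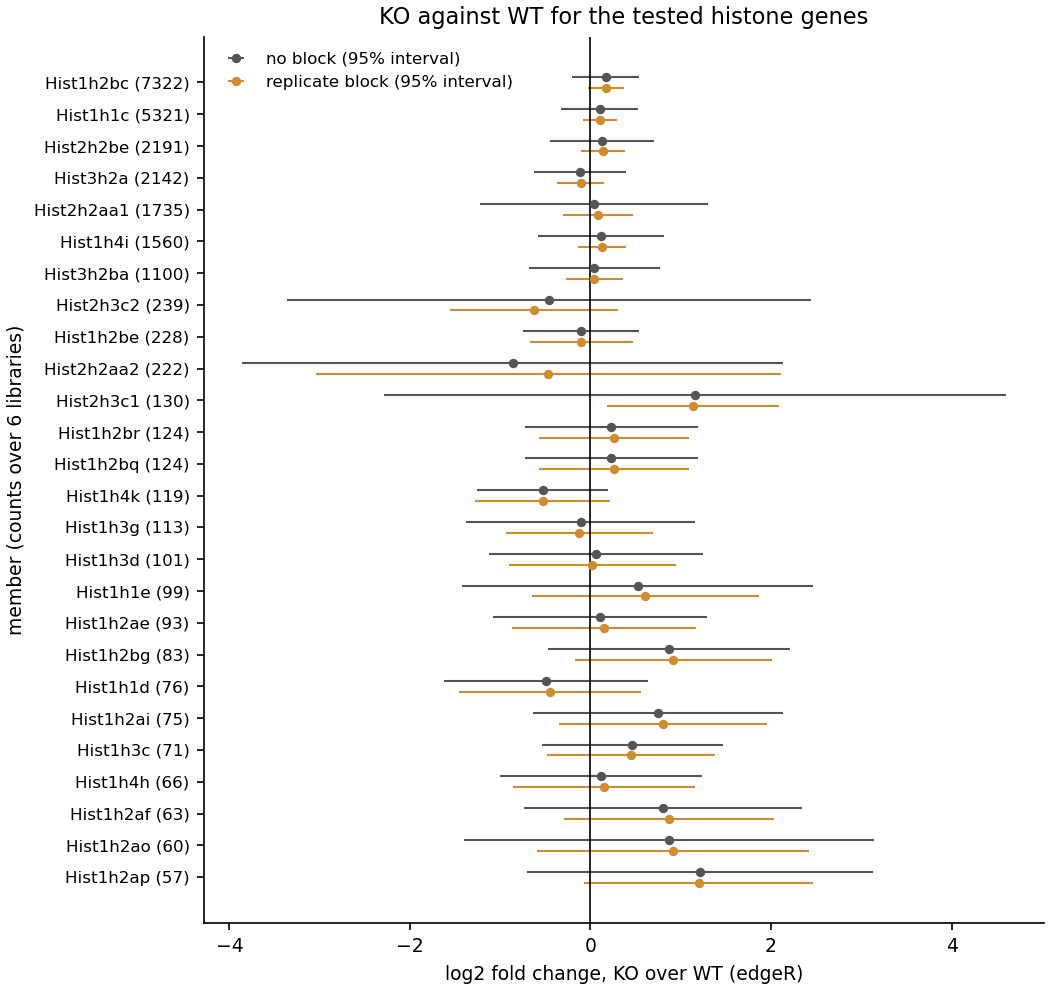
Log2 fold change of KO over WT with its 95% interval for the 26 tested histone genes, ordered by counts over 6 libraries, without a block (grey) and with the replicate number as a block (orange). The grey intervals all include 0, and among the orange ones that of Hist2h3c1 alone does not; the widest grey intervals are those of Hist2h3c1, Hist2h2aa2 and Hist2h3c2, which share sequence with other copies.

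The larger contrast among the histone genes was between replicate numbers within each genotype. In the fit with genotype and replicate number, 8 of the 26 members differed between numbers at an edgeR adjusted p under 0.05, where 49% of all genes did. Hist1h1c, Hist2h2aa1, Hist2h2be, Hist3h2a, Hist3h2ba and Hist2h3c2 were lower in number 1 than in the mean of numbers 2 and 3 in both genotypes, and Hist1h4i and Hist2h3c1 were higher. Because of the trading between copies described above, the opposite values of Hist2h3c1 and Hist2h3c2 cannot be read as 2 separate differences.

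For Hist2h2aa1 the difference of number 1 from the others was -1.34 in WT and -1.28 in KO (log2 CPM, prior count 2). The edgeR adjusted p was 0.000799, from a joint test of any difference between the replicate numbers, not of number 1 alone. The difference was -0.64 and -0.70 for Hist3h2ba (adjusted p = 0.0115) and -0.60 and -0.46 for Hist2h2be (0.0119). It was -0.49 and -0.34 for Hist3h2a (0.0442) and -0.30 and -0.40 for Hist1h1c (0.0162), all in the same edgeR test. Hist1h2bc was lower as well, by -0.29 and -0.24, but did not pass (adjusted p = 0.0853). Hist1h4i went the opposite way, at 0.72 in WT and 0.58 in KO (adjusted p = 0.00422).

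DNA replication genes, from a list of 49 that includes the Mcm helicase subunits, Pcna and the replicative polymerases, were all higher in number 1, with 49 of 49 called and medians of 0.69 in WT and 0.50 in KO. So 6 of the 7 abundant histone genes were lower in libraries where replication genes were higher, while Hist1h4i had the sign of the replication genes. The 19 other tested members went in both directions. Over all 26 tested members the median difference of number 1 was -0.25 in WT and 0.03 in KO. The 42 members outside the test, taken as a sum, were at 4.54, 2.43 and 4.68 CPM for WT 1, 2 and 3 and at 5.45, 3.68 and 3.84 CPM for KO 1, 2 and 3. Number 1 was the highest in KO but not in WT. The labels do not say what a replicate number marks, and what sets number 1 apart was not tested.

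**Figure D5:**
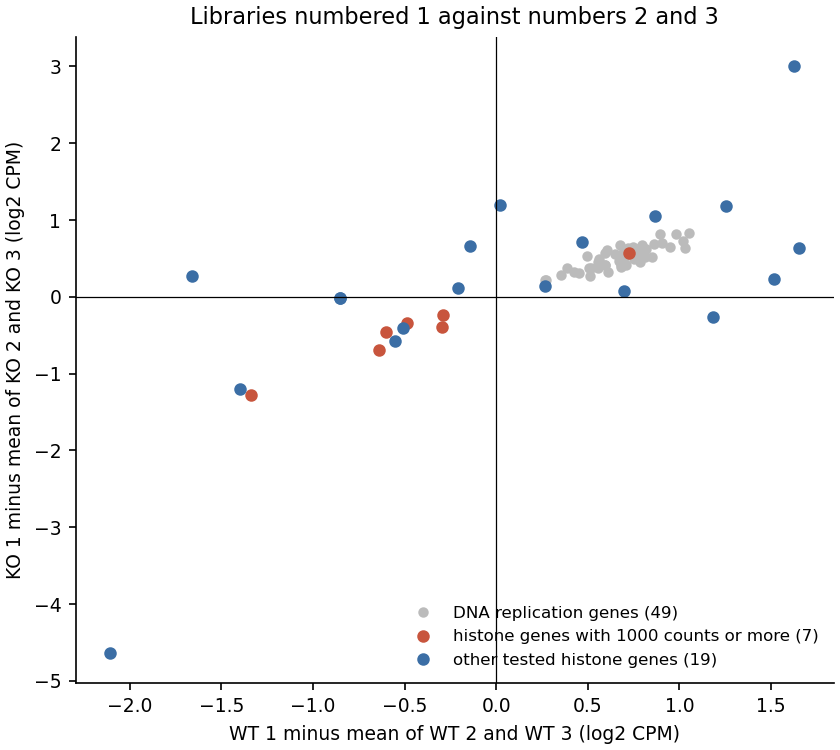
Difference in log2 CPM between library 1 and the mean of libraries 2 and 3, in WT (horizontal axis) and KO (vertical axis), for the 49 DNA replication genes (grey), the 7 abundant histone genes (red) and the 19 other tested histone genes (blue). The grey points lie in the upper right, and 6 of the 7 red points lie in the lower left, with Hist1h4i among the grey points.

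Genes that make, process and use histone mRNA were read in the same fit. Without the block, 0 members of any of the 5 lists were called by edgeR. Of 23 genes for transcription and 3′ end processing of histone mRNA, 0 were called with the block as well, with a median log2 fold change of 0.14. Slbp, which binds the stem-loop, had a WT level of 74.0 ± 20.9 and a KO level of 83.7 ± 15.3 CPM (SD, n = 3). Srrt and Snrpb were the most abundant of this list, at 218 ± 23.2 and 227 ± 22.1 CPM for Srrt and 185 ± 32.1 and 204 ± 36.9 CPM for Snrpb (WT and KO, SD, n = 3). Npat, the coactivator of histone gene transcription, was at 53.5 ± 7.21 and 58.7 ± 2.44 CPM. Of 12 genes of histone mRNA decay, 0 were called with the block by edgeR and 1 higher by DESeq2, which called 3.8% of all genes higher and 5.47% lower with the block. The most abundant were Upf1 (155 and 156 CPM) and Pnrc2 (131 and 122 CPM in WT and KO).

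Of 11 genes listed as replication-independent variants, 0 were called with the block by edgeR. DESeq2 with the block called 3 of the 11 higher, where it called 3.8% of all genes higher. H3f3b was at 660 ± 56.8 and 696 ± 64.6 CPM, H3f3a at 587 ± 70.7 and 645 ± 38.2 CPM and H2afz at 518 ± 118 and 609 ± 124 CPM (WT and KO, SD, n = 3). Of 25 histone chaperones and importers, 4 rose and 0 fell with the block in edgeR, where 3.33% of all genes were called higher and 6.46% lower: Hjurp, the chaperone of Cenpa (log2 fold change 0.42 ± 0.0936), Nasp, which holds H3 and H4 (0.28 ± 0.0644), Chaf1b, a subunit of the replication-coupled assembly factor CAF-1 (0.32 ± 0.0782), and Asf1b, which hands over H3 and H4 (0.31 ± 0.0856, all SE). Their adjusted p were 0.0195, 0.0229, 0.0306 and 0.0468 in the same edgeR test. Of 49 DNA replication genes, 9 rose and 0 fell in the same edgeR fit, with the same shares over all genes, and Pold2 (0.42 ± 0.0721), Uhrf1 (0.36 ± 0.0747), Pole (0.36 ± 0.0875) and Pola1 (0.32 ± 0.0776, all SE) had the lowest p.

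These 13 genes were not called over all 6 libraries without the block. With number 1 left out of both groups and no block, 13 genes of these lists were called higher, 8 of them among the 13. With KO 2 and KO 3 summed as 1 library and the block reduced to number 1 against the others, 1 was called, Pold2. The chaperone and replication genes called here were also among those higher in number 1. Whether the replicate number has a part in their difference between genotypes was not tested beyond these fits. No test compared these lists with the histone genes, so the calls in them and their lack among the histone genes are not shown to differ.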

How the data were processed

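The deposited table gives raw counts, as whole numbers, for each of 6 libraries. Bowtie2 and RSEM, Trim Galore with cutadapt, FastQC and the mm10 build are named in the submitters' processing notes. Versions, annotation, strand setting, and how RSEM's division of reads between copies became whole numbers were not found in the labels or the file. Without a known strand setting, reads of overlapping antisense genes cannot be told apart. Counts were tested in R 4.3.3 with edgeR 4.0.16: filterByExpr, TMM scaling, a robust quasi-likelihood fit to all libraries (glmQLFTest, two-sided, Benjamini-Hochberg over 13683 genes, called at adjusted p under 0.05). The code was tested on simulated data, with changes placed only in genes that had more counts than most of the tested members. That check does not show what differences could be found in low-count members. DESeq2 1.42.0 was an alternative. Standard errors are the log2 fold change over the square root of F. Same-numbered libraries deviated together (correlations 0.854, 0.604 and 0.580), so the replicate number was taken as a block. Numbers 2 and 3 were about as close across (0.633 and 0.578), so these values set number 1 apart but do not pair numbers 2 and 3. The labels do not state a pairing, so that of numbers 2 and 3 rests on the numbers in the titles alone.

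Named members are the 12 with the lowest p in each fit and the 2 most abundant of each class; companion genes are up to 4 called by lowest p, or the 2 most abundant; Hist3h2ba, Slbp, Npat, H2afz and H2afy2 were named after their values were seen. The members, lists and rules were chosen with earlier results of these data known. Positions, lengths and sequences are from GENCODE vM21 (GRCm38), where all 68 symbols matched 1 gene; lengths are those of the longest transcript. Copies that share reads were also summed and refitted, which was decided after the data were seen.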

Additional observations from a re-analysis of the deposited data

How the results depend on the processing

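No histone gene was called in any of the 17 alternatives run, with 20 to 66 members fitted, so the count of 0 higher and 0 lower was the same in each. In DESeq2 with the block, several low-count members had no adjusted p and could not be called. The summed histone level had a log2 ratio of KO over WT of 0.11 with RLE size factors, 0.07 with upper-quartile scaling and 0.08 in numbers 2 and 3 alone, and from 0.01 (without WT 1) to 0.21 (without WT 3) with 1 library left out. Members called for the replicate number were 7, 9 and 8 with RLE factors, upper-quartile scaling and no filter.

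Companion genes called higher were 13 with the replicate block, 20 by DESeq2 with the block, 7 with upper-quartile scaling and the block, 1 with KO 2 and KO 3 summed and the block reduced to number 1 against the others, and 13 when number 1 was left out of both groups. All other alternatives gave 0, and none were called lower.

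Leaving out 1 library moved the log2 value by over 1.5 times in 18 of 19 named members, all uncalled, the exception being Hist1h4k. Signs of 8 members turned in 15 of 298 refits. Hist2h2aa2 was at 0.41 by DESeq2 with the block. With 1 library left out the ranges were -0.00063 to 1.07 for Hist1h1e, -0.10 to 0.42 for Hist1h4i, -0.29 to 0.53 for Hist2h2aa1, -1.46 to 0.71 for Hist2h2aa2, -0.037 to 0.29 for Hist2h2be, -1.44 to 0.15 for Hist2h3c2, -0.26 to 0.037 for Hist3h2a and -0.14 to 0.24 for Hist3h2ba (log2). The cause was not tested. Depth is low for the 19 tested members under 1000 counts.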
